A study of Mus musculus with 12 samples.

Results

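The Wnt ligands, Frizzled receptors and secreted Wnt inhibitors were followed here as a family of 37 genes in the DNA of the mouse left ventricle. The family held 19 ligand genes (Wnt1 to Wnt16), 10 receptor genes (Fzd1 to Fzd10) and 8 inhibitor genes (Sfrp1, Sfrp2, Sfrp4, Sfrp5, Dkk1, Dkk2, Dkk3 and Wif1). Members were taken by gene name, and their sites were the cytosines inside each gene or within 5 kb of it that had a value in all 12 samples. At least 1 such site was found for 35 of the 37 genes, and none for Wnt16 and Fzd6. Together these genes held 1083 distinct sites among 306534 autosomal sites with complete values.

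Reduced representation bisulfite sequencing (RRBS) measures methylation after the enzyme MspI has cut DNA at CCGG, so that CpG-rich fragments are read most. The 12 samples were left ventricles of wild-type FVB/N mice aged 3 weeks, at weaning. Mothers of 6 mice (3 females and 3 males) had received a high-fat diet (HFD), and those of the other 6 (4 females and 2 males) the regular diet (RD), which began when the mothers were 6 weeks old. All fathers were kept on the regular diet, and mating followed 8 weeks into the maternal diet. The labels' protocols give offspring the regular diet from weaning. The study asked how maternal obesity acts on the offspring heart. Nothing in the labels gives the number of mothers or says which mice were littermates, so every p-value measures only the spread between these samples. The HFD libraries are numbered between 2 and 8 and the RD libraries between 9 and 14, so the effect of diet and that of library order cannot be told apart.

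Wnt proteins are secreted, lipid-modified signals. They bind Frizzled receptors, which span the membrane, together with co-receptors of the Lrp family or with Ror and Ryk, and the signal either stabilises β-catenin or acts on cell polarity and calcium. Sfrp proteins and Wif1 bind Wnt ligands outside the cell, while Dkk1 blocks the Lrp co-receptors, which Dkk2 also binds. In the heart the pathway takes part in early heart formation and valve formation, is mostly quiet in the healthy adult muscle, and becomes active again after injury. CpG-rich starts of developmental genes such as these are usually unmethylated whether or not the gene is expressed, and RRBS gives no RNA level.

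The family's starts are rich in CpG, and the sequences below show how far they differ and which bases were read. RefSeq promoter sequence (GRCm38.p6) was matched for 26 of the 37 genes: 15 ligands, 6 receptors and 5 inhibitors. Wnt5a, Wnt7b, Wnt8a, Wnt10a, Fzd2, Fzd3, Fzd6, Fzd8, Sfrp1, Sfrp4 and Dkk3 had no entry. The 250 bases before the start held a median of 22.5 CpGs in these 26 genes and of 10 in all 17492 promoters of protein-coding genes. The MspI motif CCGG, which reads the same on both strands, was present in 24 of the 26 (92.3%) and in 55.1% of all promoters. The 5 inhibitor promoters held a median of 13 CpGs, against 28 in the 15 ligand and 28.5 in the 6 receptor promoters.

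Wnt8b and Wnt4, ligand genes of the developing brain and of the kidney and reproductive tract, mark the low and a high CpG content among ligands. Wnt8b (chr19:44493222-44493471, plus strand) has 5 CpGs and Wnt4 (chr4:137277385-137277634, plus strand) has 44, each shown in capitals in the 250 bases before the start.
Wnt8b: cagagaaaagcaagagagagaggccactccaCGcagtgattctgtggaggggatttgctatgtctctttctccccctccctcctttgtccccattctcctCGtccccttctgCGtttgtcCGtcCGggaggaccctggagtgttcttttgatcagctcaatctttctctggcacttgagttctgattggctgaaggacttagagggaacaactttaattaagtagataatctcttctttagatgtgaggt
Wnt4: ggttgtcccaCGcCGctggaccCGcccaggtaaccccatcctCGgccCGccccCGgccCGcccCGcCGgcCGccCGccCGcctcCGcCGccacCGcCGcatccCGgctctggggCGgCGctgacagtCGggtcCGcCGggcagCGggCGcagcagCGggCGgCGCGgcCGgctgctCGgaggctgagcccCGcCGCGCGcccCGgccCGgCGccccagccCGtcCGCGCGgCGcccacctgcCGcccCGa

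In the next 4 sequences the capitals mark only CpGs with a cytosine listed in the deposited table, so that they show where the assay saw the promoter. They are Wnt7a (chr6:91411354-91411603, minus strand), Fzd9 (chr5:135251048-135251297, minus strand), Wif1 (chr10:121033754-121034003, plus strand) and Dkk1 (chr19:30549497-30549746, minus strand). Wnt7a is shown because single mice stood far apart there. Only Fzd9 and Wnt10a had sites at both ends, and the contrast between ends was larger in Fzd9. Wif1 and Dkk1 are inhibitors of the 2 kinds, one binding Wnt and the other its co-receptor.
Wnt7a: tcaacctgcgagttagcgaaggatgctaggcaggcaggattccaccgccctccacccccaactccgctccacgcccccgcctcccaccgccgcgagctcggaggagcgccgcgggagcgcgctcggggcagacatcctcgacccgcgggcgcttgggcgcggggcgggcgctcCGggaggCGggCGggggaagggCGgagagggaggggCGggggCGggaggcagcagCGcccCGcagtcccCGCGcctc
Fzd9: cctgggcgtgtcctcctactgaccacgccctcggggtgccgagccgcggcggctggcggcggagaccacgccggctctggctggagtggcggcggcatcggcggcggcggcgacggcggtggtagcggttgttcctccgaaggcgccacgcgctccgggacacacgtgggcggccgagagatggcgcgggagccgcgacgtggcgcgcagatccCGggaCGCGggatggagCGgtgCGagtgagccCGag
Wif1: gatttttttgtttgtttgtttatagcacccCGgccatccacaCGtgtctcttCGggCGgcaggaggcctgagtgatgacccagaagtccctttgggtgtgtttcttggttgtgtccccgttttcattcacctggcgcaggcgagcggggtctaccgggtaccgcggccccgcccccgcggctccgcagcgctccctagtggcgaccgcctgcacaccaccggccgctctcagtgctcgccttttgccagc
Dkk1: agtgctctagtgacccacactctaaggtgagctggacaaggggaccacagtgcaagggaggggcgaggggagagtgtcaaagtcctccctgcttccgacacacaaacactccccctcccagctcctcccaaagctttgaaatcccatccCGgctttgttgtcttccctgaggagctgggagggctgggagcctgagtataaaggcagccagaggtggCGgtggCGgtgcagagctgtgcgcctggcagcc
The table listed 10 CpGs of the Wnt7a window, 6 of Fzd9, 4 of Wif1 and 3 of Dkk1. Their mean methylation over 12 mice was 5.83% in Wnt7a, 1.10% in Fzd9, 0.738% in Wif1 and 4.06% in Dkk1.

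Sites were averaged per gene in 2 kinds. Gene-end sites lie within 1 kb of either end of the gene, and other sites lie inside the gene or within 5 kb of it but more than 1 kb from both ends. The gene table gives ends and no exons, introns or UTRs. The family had 511 gene-end and 582 other sites. Because Wnt3 and Wnt9b overlap, 25 sites belonged to more than 1 member, and the gene-end sites of Wnt9b lay among those of the Wnt3 start. Of the members, 28 had at least 3 gene-end sites (13 ligands, 8 receptors, 7 inhibitors) and 26 had at least 3 other sites (16 ligands, 7 receptors, 3 inhibitors), with 21 in both. Too few gene-end sites were read in Wnt1, Wnt5a, Wnt7b, Wnt10b, Wnt11, Fzd7 and Sfrp5, besides Wnt16 and Fzd6. Too few other sites were read in Wnt1, Wnt8a, Fzd8, Fzd9, Sfrp4, Sfrp5, Dkk1, Dkk2 and Wif1, besides the same pair.

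Across the 12 libraries the table gave values at 385299 to 417081 of 421177 sites, with no read counts, so the depth and counting error of a single value are unknown. As a look at the labelled tissue, gene ends of the cardiomyocyte genes Myh6 and Tnnt2 (myosin heavy chain and troponin T) averaged 69.2% and 48.3%, and those of Actn2 and Ryr2 6.51% and 2.29%. Methylation is not expression, and these values neither show nor contradict the label.

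Most gene ends of the family had low methylation. Their median level was 2.95% over the 28 members and 2.34% over all 9325 genes tested, and 25 of the 28 members lay under 10%, as did 77.9% of all genes. By class the medians were 5.29% in ligands, 2.13% in receptors and 2.88% in inhibitors. Wif1, at 0.738%, and the receptor Fzd1, at 1.02%, were lowest. These are descriptions of a list chosen with results of these data known, with no test.

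The 3 members above 10% were Wnt8b (38.6%), Wnt8a (22.6%) and Sfrp4 (11.1%). Only 3 sites stood behind Wnt8b, and all lay at its finish (chr19:44513929-44513988), not at the start shown above. The 16 Wnt8a sites lay at its end with the higher coordinate, and no strand was available for Wnt8a. The 18 sites of Sfrp4, a secreted Frizzled-related protein, lay at its lower-coordinate end (chr13:19623088-19623819), where 13 of 18 were under 10%.

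Fzd9 carried both extremes in 1 small gene. Its 47 sites at the start averaged 3.12%, while its 3 sites at the finish averaged 94.4%, so the gene-end mean of 8.59% describes neither side. Where only sites at the annotated start were averaged, the 9 ligands, 5 receptors and 4 inhibitors with enough sites were all under 10%, as were 89.2% of 6773 genes. Their medians were 3.16%, 2.18% and 2.16%. This restriction was chosen after the levels at the other ends had been seen.

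**Figure D1:**
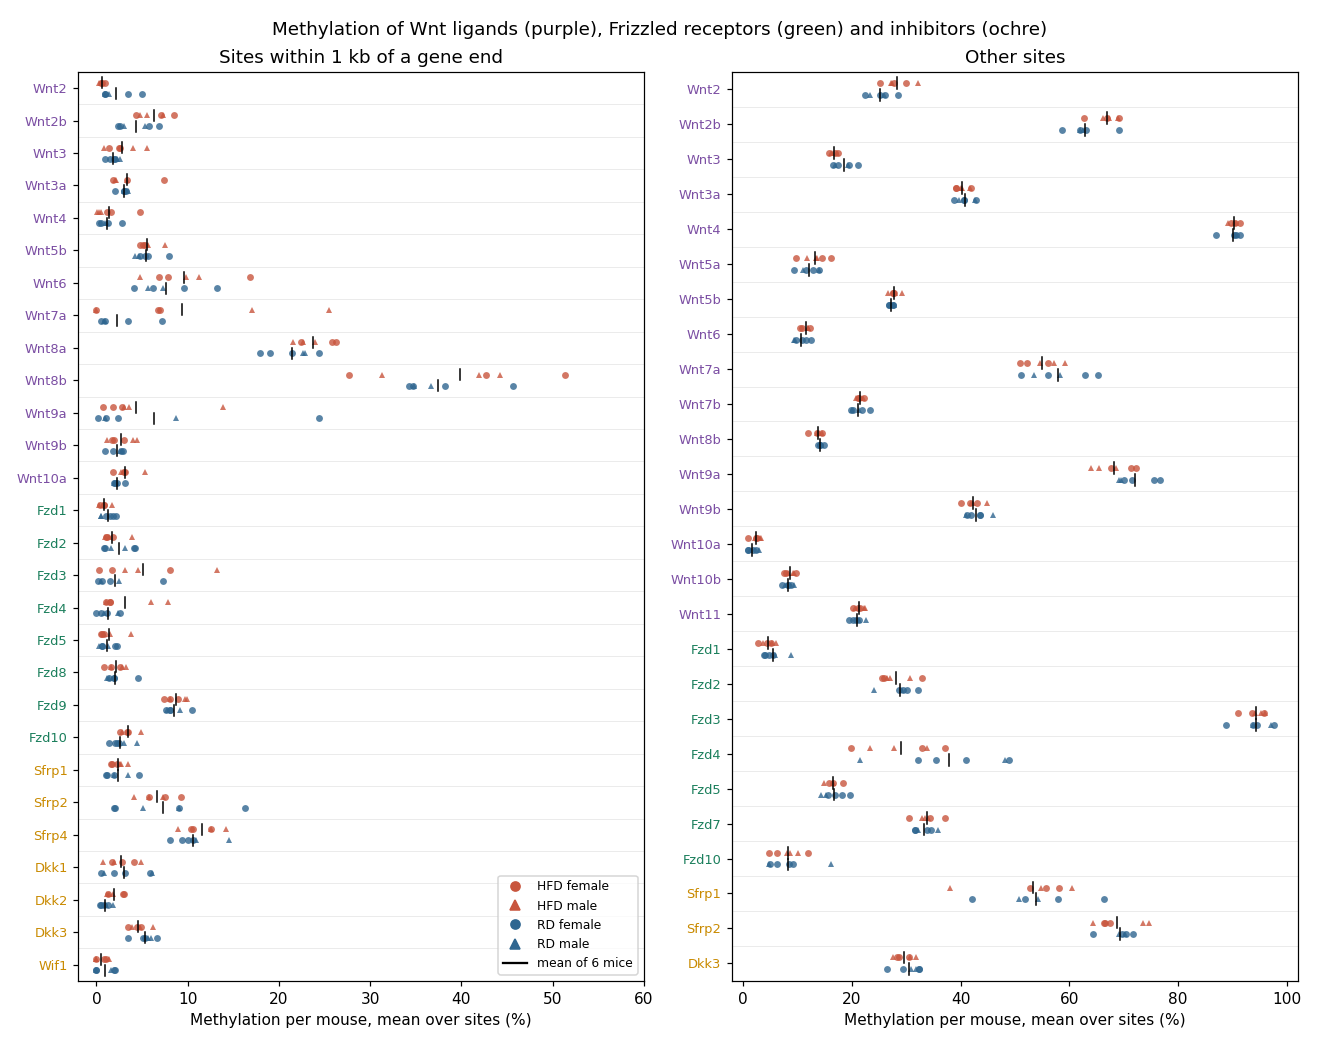
Methylation (%) per mouse, averaged over the gene-end sites (left, 28 genes) or the other sites (right, 26 genes) of each gene, with circles for females, triangles for males, red for HFD, blue for RD and bars for the mean of 6 mice. Mean gene-end levels lie under 12% apart from Wnt8a and Wnt8b, while other sites run from 2.06% in Wnt10a to 94.3% in Fzd3.

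Away from gene ends the members covered a wide range. The median over 26 members was 28.0%, against 58.2% over 10128 genes, and 55.8% of the members' 582 other sites lay under 10%, against 31.4% of such sites of all genes. The class medians were 24.0% in ligands, 28.5% in receptors and 53.6% in inhibitors. Only 3 inhibitors entered this figure (Sfrp1, Sfrp2 and Dkk3), so the inhibitor value rests on few genes. The other sites are also not all clear of starts. The RefSeq promoters of Wnt6 (chr1:74771642-74771891) and Wnt9b (chr11:103749822-103750071) lie inside the gene, far from both ends. The 6 measured sites of the Wnt9b promoter averaged 7.07%. In Wnt5b, 31 of its 61 sites lay in another gene. How far such sites lower the members' values was not tested.

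The 4 genes under 10% were Wnt10a (2.06%, 26 sites), Fzd1 (5.02%, 33 sites), Fzd10 (8.32%, 3 sites) and Wnt10b (8.47%, 52 sites). The highest were the receptor gene Fzd3 (94.3%), with only 4 sites, and Wnt4 (90.2%), with 33 sites inside the gene. Wnt4 thus had start-side sites at 1.29% and a body at 90.2%. Those 12 start-side sites lay 418 to 599 bp inside the gene, and none of the promoter CpGs shown above was measured. Wnt9a (70.2%), Sfrp2 (69.0%) and Wnt2b (64.9%) followed, and the 13 other sites of Sfrp2 all lay outside the gene. Between these extremes, Wnt6, Wnt5a, Wnt8b and Wnt3 lay at 11.1 to 17.6%, Wnt11, Wnt7b, Wnt2 and Wnt5b at 21.1 to 27.5%, and Wnt3a and Wnt9b at 40.6 and 42.6%. Wnt7a, at 56.4%, combined methylated sites inside the gene with the low start shown above. Of the receptors, Fzd5 lay at 16.6%, Fzd2 at 28.5% and Fzd4 and Fzd7 at 33.5%.

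**Figure D2:**
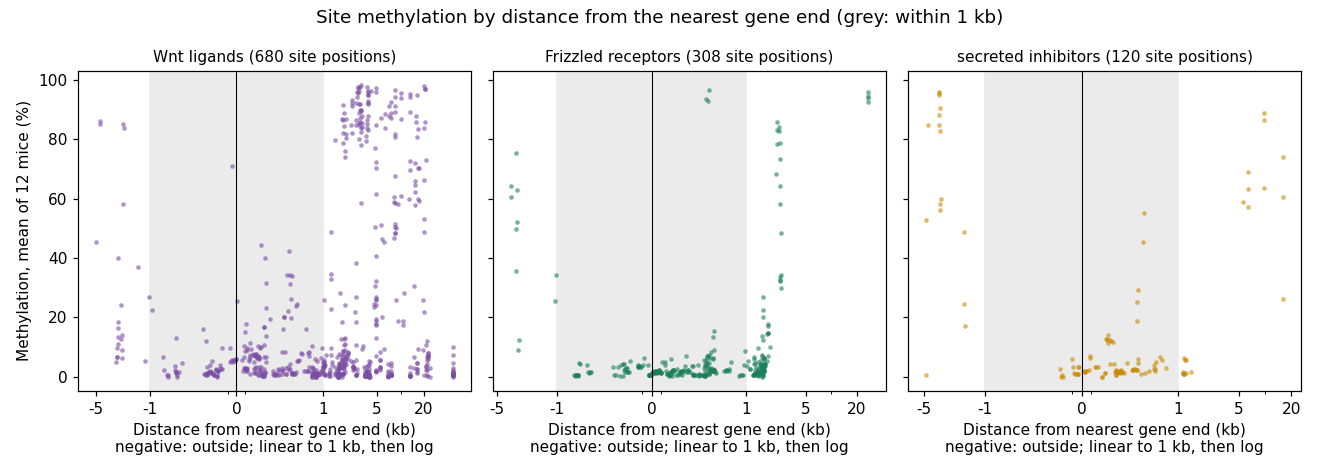
Each point is 1 site of a member, placed by its distance (kb) from the nearest gene end (negative outside the gene, linear to 1 kb and logarithmic beyond) and by its methylation (%, mean of 12 mice). Inside the grey window within 1 kb most sites lie near 0, with medians of 2.77% for ligands, 1.72% for receptors and 2.21% for inhibitors on the gene side, and beyond it both low and high sites occur.

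Further inside the genes, over 1 kb from an end, the median site was at 6.15% in ligands (415 sites of 16 genes), 4.08% in receptors (99 sites of 8 genes) and 16.2% in inhibitors (20 sites of 2 genes, 17 of them in Dkk3). Outside the genes, between 1 and 5 kb, the median was 16.4% in ligands (23 sites of 8 genes), 49.7% in receptors (11 sites of 3 genes, 7 of them by Fzd2) and 71.2% in inhibitors (16 sites of 3 genes, 13 of them by Sfrp2).

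The order of the classes was compared within each mouse. At gene ends, with genes weighted equally, the mean was 8.08% for ligands (6.22 to 10.6% over 12 mice), 2.98% for receptors (1.93 to 5.59%) and 4.34% for inhibitors (2.92 to 5.81%). Ligands were above receptors in 12 of 12 mice and above inhibitors in 12 of 12, and inhibitors above receptors in 11 of 12. With each site weighted equally, ligands stayed above inhibitors in 8 of 12 mice, and with start sites only in 9 of 12, at means of 3.62% and 3.00%. With start sites only, inhibitors lay above receptors in 8 of 12 mice. The start sites leave out Wnt8b and Wnt8a, the highest ligand gene ends.

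At other sites the order was different. Inhibitors were highest in 12 of 12 mice, with a mean of 50.9% against 33.0% for ligands and 31.4% for receptors. Ligands lay above receptors in 11 of 12 mice, by 1.58 points on average, and by 9.65 points with sites weighted equally. No test was made of these orders, since genes are not replicates.

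The diets were compared per gene with limma on the log2 ratio of methylated to unmethylated share, with sex as a covariate, two-sided, and p-values adjusted over all genes of a kind by the Benjamini-Hochberg method. No member passed an adjusted p of 0.05 at gene ends (0 of 28) or at other sites (0 of 26). Over all genes the share called was 0.0214% at gene ends and 0.178% at other sites. At an unadjusted p under 0.05 there were 2 of 28 members (7.14%; 6.41 percent of all genes) and 2 of 26 (7.69%; 8.12 percent of all genes). The members' shares were near those of all genes. No member had HFD and RD samples that did not overlap, which 0.515% and 0.701% of all genes had.

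The ligand Wnt2, a Wnt of lung and heart development, had the smallest p among ligand gene ends (7 sites, chr6:18031837-18031900). Its level was 0.292, 0.567 and 0.943% (lowest, median, highest) in the 6 HFD mice and 0.886, 1.16 and 4.99% in the 6 RD mice. In 5 of 6 HFD mice it lay under every RD mouse, but 1 overlapped. Means were 0.574% ± 0.217 and 2.10% ± 1.71 (SD, n = 6 each), a log2 ratio difference of -0.31 (SE 0.14, limma adjusted p = 0.759). The difference was -1.52 points, and -0.946 points without RD female 1, the mouse at 4.99%. All of these levels are close to 0.

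Dkk2, an inhibitor that binds Lrp co-receptors, had the smallest p among inhibitor gene ends (6 sites, chr3:132085435-132085627). It ranged over 1.13, 1.62 and 3.00% in HFD and 0.388, 0.918 and 1.77% in RD, with 3 HFD mice above every RD mouse and the rest overlapping. The difference was 0.960 points (log2 ratio 0.23, SE 0.10, limma adjusted p = 0.755). As in Wnt2, every value was close to 0.

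Wnt2b, the closest relative of Wnt2 in the family, was among the smallest p-values of ligands in both kinds of site. Its 36 start sites gave 4.33, 6.31 and 8.49% in HFD and 2.36, 4.21 and 6.84% in RD (difference 1.94 points, limma adjusted p = 0.806). Its 9 other sites gave 62.7, 67.1 and 69.2% in HFD and 58.6, 62.2 and 69.1% in RD (difference 4.03 points, log2 ratio 0.23, SE 0.10, limma adjusted p = 0.597). The HFD median lay above the RD median in both, the ranges overlapped in both, and neither passed adjustment.

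Wnt9a, a ligand gene of limb joint development, had a lower HFD mean at its 8 other sites. They gave 63.9, 68.1 and 72.3% in HFD and 69.2, 70.8 and 76.7% in RD, with 4 HFD mice below every RD mouse. The difference was -3.89 points (log2 ratio -0.19, SE 0.09, limma adjusted p = 0.600). Wnt4, the most methylated ligand at other sites, had 89.1, 90.4 and 91.4% in HFD and 87.0, 90.6 and 91.3% in RD, a difference of 0.144 points (adjusted p = 0.984, limma).

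Wnt8b, the most methylated ligand end, spread widely in both diets. Its values were 27.7, 42.3 and 51.3% in HFD and 34.3, 35.8 and 45.7% in RD, so the HFD range enclosed the RD range (difference 2.47 points, limma adjusted p = 0.957; 0.180 points without HFD female 2 and 4.91 points without HFD female 3).

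Among receptors, Fzd4, the receptor of norrin as well as of Wnts and needed for retinal vessels, had the largest difference between diets at other sites. At its start (15 sites) the levels were 1.01, 1.49 and 7.79% in HFD and 0, 0.964 and 2.57% in RD, with HFD male 3 and HFD male 4 above every RD mouse (difference 1.93 points, limma adjusted p = 0.874; 0.998 points without HFD male 3). Its 3 other sites gave 19.9, 30.4 and 37.1% in HFD and 21.5, 38.2 and 48.9% in RD, a difference of -8.71 points (log2 ratio -0.47, SE 0.28, limma adjusted p = 0.744). The ranges overlapped in both kinds.

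Fzd10 gave 2.60, 3.37 and 4.90% at its start in HFD and 1.34, 2.40 and 4.43% in RD (difference 0.817 points, limma adjusted p = 0.874; 0.522 points without HFD male 4). Fzd9 gave 7.45, 8.47 and 9.93% in HFD and 7.62, 8.08 and 10.5% in RD over both ends (difference 0.142 points, limma adjusted p = 0.995). At other sites, Fzd1 had 2.70, 4.74 and 6.10% in HFD and 3.90, 5.11 and 8.87% in RD (difference -0.937 points, limma adjusted p = 0.723; -0.260 points without RD male 2 and -0.566 without HFD female 3). All 3 pairs of ranges overlapped. Fzd3, with 90.9, 94.7 and 96.0% in HFD and 88.9, 94.1 and 97.7% in RD, was level (difference of means 0.00472 points, log2 ratio -0.07, limma adjusted p = 0.959).

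Among the other inhibitors the diets also overlapped. Sfrp4 had gene-end values of 8.93, 11.6 and 14.2% in HFD and 8.11, 10.3 and 14.6% in RD (limma adjusted p = 0.960). Sfrp2 had 64.3, 67.1 and 74.6% at other sites in HFD and 64.3, 69.9 and 71.8% in RD (limma adjusted p = 0.954). Dkk3, a Dkk relative that is not known as an Lrp blocker, had 3.42, 4.58 and 6.17% in HFD and 3.47, 5.47 and 6.58% in RD at its end (limma adjusted p = 0.874), and 27.6, 29.6 and 31.9% against 26.5, 31.4 and 32.4% at other sites (adjusted p = 0.875).

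**Figure D3:**
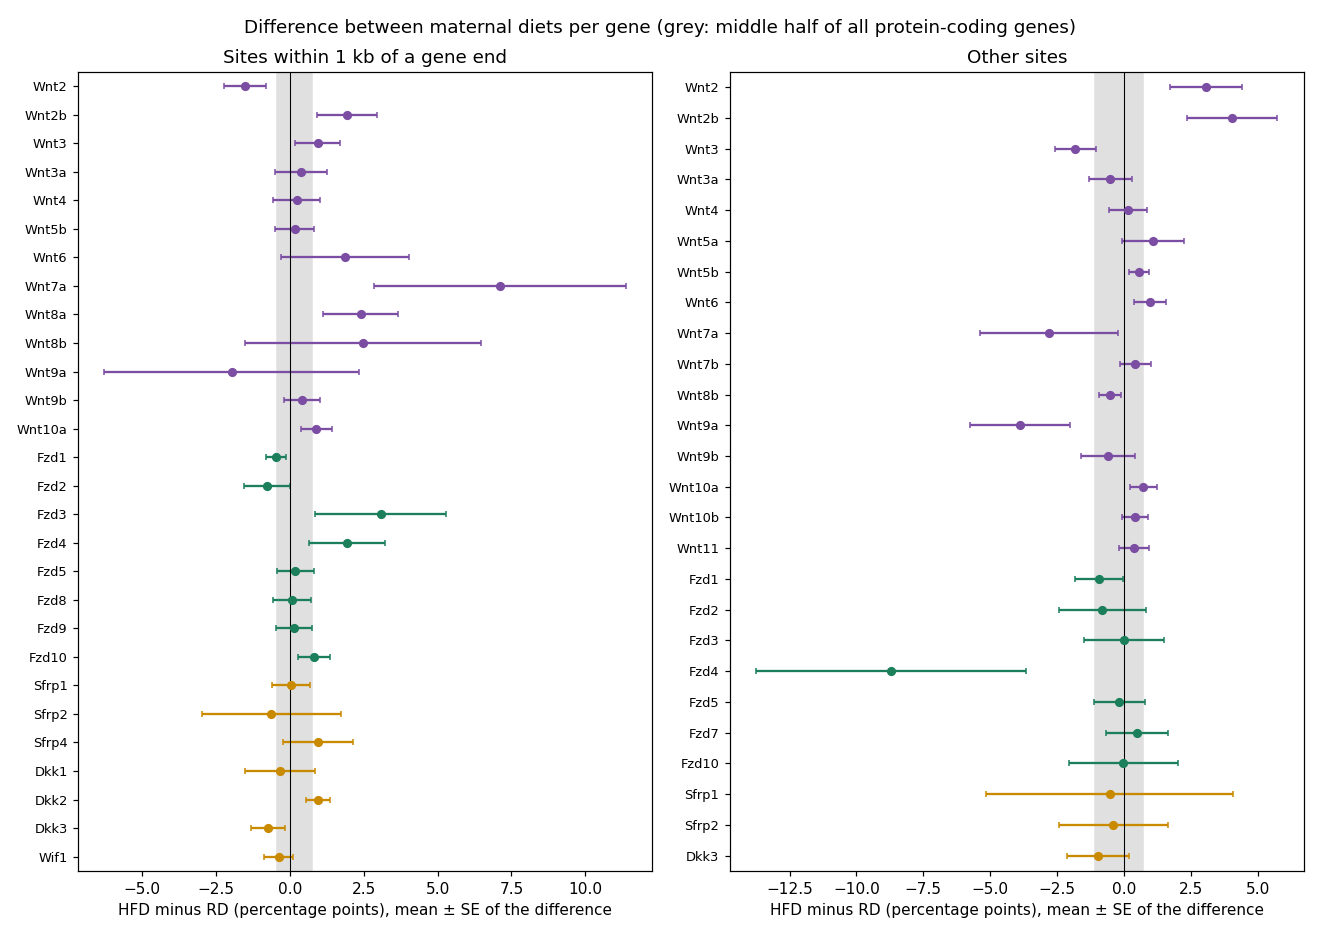
Difference HFD minus RD in percentage points for each gene (point: difference of the means of 6 and 6 mice; bar: its SE; colours by class as purple ligands, green receptors, ochre inhibitors; grey: the range of the middle 50% of all genes). The farthest points from 0 are Wnt7a at gene ends (7.11 points, or 3.89 without HFD male 4) and Fzd4 at other sites (-8.71 points), both with long bars.

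The direction over the members was uneven at gene ends. The HFD mean was higher in 20 of 28 members and lower in 8 (28.6%), where it was lower in 43.9 percent of all genes, and the median difference was 0.307 points against 0.119 points over all genes. The HFD mean was higher in 11 of 13 ligands, 6 of 8 receptors and 3 of 7 inhibitors. Wnt3 and Wnt9b, both higher, share gene-end sites and are counted separately here. The median over all genes depended on single mice, at 0.0231 points without HFD male 3 and 0.219 without RD female 1. At other sites 14 of 26 members (53.8%) were lower in HFD, against 53.9 percent of all genes, and the median difference was -0.109 points against -0.119. These counts are a description, and most of the differences are smaller than the spread between mice.

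As class means per mouse, ligand gene ends were 8.67% ± 1.28 in HFD and 7.49% ± 1.61 in RD (SD, n = 6 each). Receptor gene ends were 3.29% ± 1.32 and 2.67% ± 0.639, and inhibitor gene ends 4.33% ± 0.623 and 4.35% ± 1.14. At other sites the HFD and RD means were 33.0% and 32.9% for ligands, 30.7% and 32.1% for receptors, and 50.6% and 51.2% for inhibitors. Every difference was smaller than the larger SD of its pair. With 1 mouse left out at a time, the gene-end difference ran from 0.841 to 1.80 points in ligands, from 0.159 to 0.824 in receptors and from -0.309 to 0.268 in inhibitors. At other sites it ran from -0.0508 to 0.295 points in ligands, from -2.17 to -0.819 in receptors and from -2.03 to 0.521 in inhibitors, so that its sign was not stable in inhibitors at either kind of site, nor in ligands at other sites.

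Single sites were tested next, over 157524 autosomal sites with a mean of 5 to 95%. None of the members' 432 sites passed limma's adjusted p of 0.05 (16 of all sites did, 0.0102 percent). At an unadjusted p under 0.05 there were 25 sites (5.79%; 6.53 percent of all sites), 14 higher and 11 lower in HFD (3.66 percent of all sites were lower at that p). The 2 sites whose diets did not overlap (0.482 percent of all sites had none) were 1 in Wnt2 (chr6:18031837, 3.32% against 6.94%, adjusted p = 0.688) and 1 in Wnt3a (chr11:59256508, 83.0% against 78.6%, adjusted p = 0.811). Both are named after their values were seen.

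The member site with the smallest p lay in Wnt2b, 120 bp inside the gene from its start (chr3:104961589). It read 0, 18.3 and 26.3% in HFD and 0, 0 and 7.41% in RD, and means were 15.8% and 2.31% (log2 ratio 1.77, SE 0.46, limma adjusted p = 0.506). In 5 of the 6 HFD mice it was above every RD mouse, and HFD male 4 was at 0. Over all 6 sites of chr3:104961542-104961614, this one included, HFD male 4 was at 0, the other HFD mice at 12.0 to 23.2%, and RD mice at 0.694 to 12.1%. In the 5 sites of the same start at chr3:104961320-104961388 the diets were interleaved, at 7.69 to 26.7% in HFD and 2.34 to 35.0% in RD, and HFD male 4 was at 24.6%. Neighbouring sites are read on the same fragments and are not separate evidence.

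The next sites were in Wnt7b, a Wnt of lung and kidney development, and in Fzd1. The Wnt7b site (chr15:85538091) gave 87.0, 90.3 and 96.2% in HFD and 75, 81.1 and 88.6% in RD (limma adjusted p = 0.585). The Fzd1 site (chr5:4756415) gave 0, 7.45 and 21.1% in HFD and 12.9, 21.1 and 26.7% in RD (limma adjusted p = 0.622). The ranges overlapped at both.

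In windows of 500 bp with at least 3 sites, 0 of the members' 60 windows passed limma's adjusted threshold (0.0294 percent of 23791 did), and 3 (5.00%; 7.81 percent of all) had an unadjusted p under 0.05. No member window had diets without overlap, which 0.626 percent of all windows had. The first was in Wnt7b (chr15:85538091-85538145), 81.6, 92.6 and 95.9% in HFD and 80.9, 84.2 and 90.8% in RD (limma adjusted p = 0.469). The second was in Wnt9a (chr11:59312527-59312594), 27.8, 37.1 and 41.4% in HFD and 37.5, 44.7 and 48.1% in RD (limma adjusted p = 0.502). Diets overlapped in both of these and in the window of Fzd1 (chr5:4756302-4756464), with means of 10.6% and 14.7% (limma adjusted p = 0.612). All 3 windows lie inside their genes.

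At some gene ends of the family 1 to 3 mice lay above the rest. Such spread was not particular to the family. The median SD between mice was 1.34 points over the 28 members and 1.48 over all 9325 genes. The largest SD was 7.94 points in members and 21.1 in all genes. Wnt7a, a ligand of nervous system and limb patterning, had 10 sites in 72 bp just before its start (chr6:91411359-91411430). They averaged 25.5% in HFD male 4 and 17.1% in HFD male 3, while the other 10 mice lay between 0 and 7.16%. In HFD male 4 every one of the 10 sites read 20 to 30%. Sites so close are read on the same fragments, so their agreement is not separate evidence for the level. The HFD mean was 9.39% ± 10.1 and the RD mean 2.28% ± 2.63 (SD, n = 6 each; limma adjusted p = 0.864). The difference was 7.11 points, and 3.89 points without HFD male 4.

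In Wnt9a the highest mouse was an RD mouse. Its 28 sites in chr11:59306938-59307120, just inside the gene, averaged 27.5% in RD female 1, with single sites at 11.1 to 40.9%. They averaged 15.6% in HFD male 4 and 9.53% in RD male 2, and 0.0776 to 3.68% in the other 9 mice. The 4 further sites, upstream of the gene in chr11:59306468-59306541, were at 0.556 to 2.98% in all 12 mice.

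**Figure D4:**
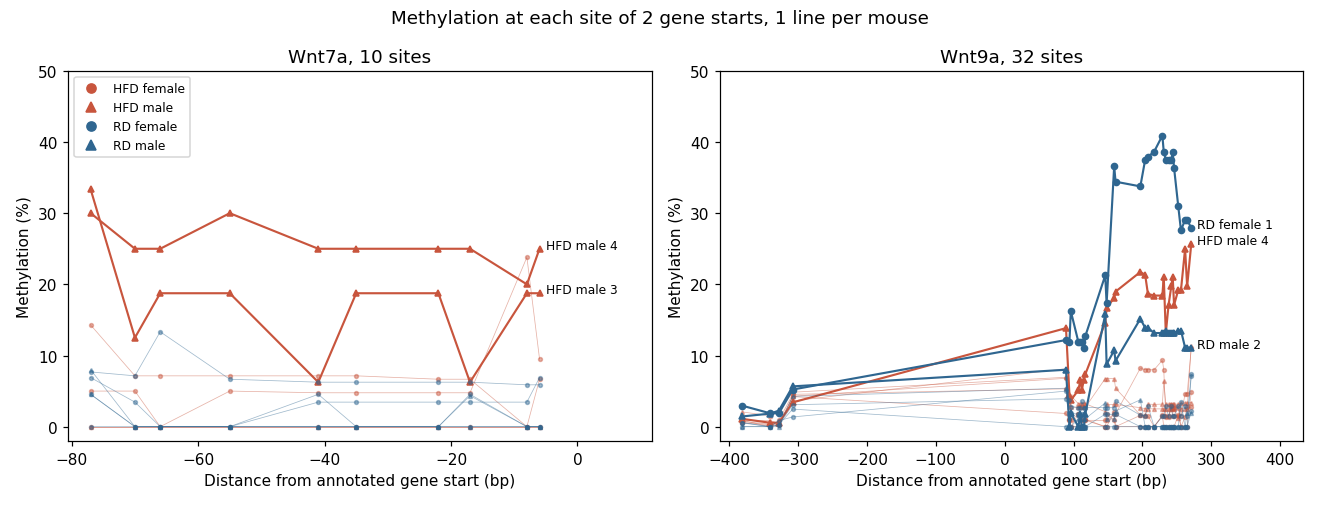
Methylation (%) at each site, by distance (bp) from the annotated gene start, for Wnt7a (10 sites) and Wnt9a (32 sites), with 1 line per mouse (red HFD, blue RD; named mice drawn bold). HFD male 3 and HFD male 4 lie above the other mice over most of the Wnt7a run, and RD female 1, HFD male 4 and RD male 2 do so inside Wnt9a.

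Fzd4 and Fzd3 also differed between mice. In Fzd4 (chr7:89404935-89404996, 4 sites inside the gene), HFD male 3 averaged 24.5% and HFD male 4 18.3%, with 0 to 4.59% in the other 10. In Fzd3, whose strand was not available, 2 groups of gene-end sites had different mice on top. In chr14:65262546-65262606 (9 sites) HFD male 3 averaged 16.5%, RD female 2 10.96% and HFD female 3 7.31%, with the rest at 0.152 to 4.28%. In chr14:65262726-65262783 (6 sites) HFD female 3 averaged 9.08%, HFD male 3 8.23% and HFD male 4 7.78%, and the rest, RD female 2 included, lay at 0 to 4.37%. HFD male 4 was the library with the fewest sites (385299), and its part in these values was not tested.

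Both sexes were examined apart, with 1 mean per diet and sex. No member passed limma's adjusted threshold in females, where 0.0 percent of all gene ends and 0.0296 percent of other-site means did. None passed in males (0.0322 percent and 0.0494 percent of all genes) or in the interaction of diet and sex (0.0107 percent and 0.0 percent). In females 3 member gene ends had an unadjusted p under 0.05 (4.17 percent of all genes) and 0 members at other sites (5.6 percent). In males 0 member gene ends did (8.0 percent of all genes) and 1 member at other sites (7.02 percent). In the interaction 0 member gene ends did (5.53 percent of all genes) and 1 member at other sites (4.75 percent).

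The smallest p in females was that of the Dkk2 start, 1.23, 2.89 and 3.00% in the 3 HFD females and 0.388, 0.538, 0.794 and 1.21% in the 4 RD females (limma adjusted p = 1). The female groups did not overlap, as in 6.04 percent of all genes, and the nearest mice were at 1.23% and 1.21%. The HFD and RD males, at 1.13 to 1.85% and 1.04 to 1.77%, overlapped, and the interaction had a limma adjusted p of 0.897. The Wnt8a and Fzd1 ends followed in females, higher (24.8% against 20.7%) and lower (0.676% against 1.62%) in HFD, at adjusted p = 1 in limma.

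In males the smallest p was at the 27 other sites of Wnt6, a ligand of epithelia and kidney tubules. The 3 HFD males averaged 12.0% ± 0.0296 (SD) and the 2 RD males read 9.56% and 9.33% (limma adjusted p = 0.563). HFD and RD females both averaged 11.2%, and the interaction had an unadjusted p under 0.05 (limma adjusted p = 0.983). With 2 RD males this rests on very few mice. The smallest interaction p at gene ends was that of Fzd1 (limma adjusted p = 0.897).

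Between the sexes no member passed limma's adjusted threshold either, which 0.0214 percent of all gene ends and 0.00987 percent of other-site means did. At gene ends 1 member (6.05 percent of all genes) and at other sites 3 members (5.55 percent) had an unadjusted p under 0.05. Other sites of Wnt9a were at 67.6, 71.6 and 76.7% in 7 females, and at 63.9, 65.5, 68.5, 69.2 and 69.5% in the 5 males (limma adjusted p = 0.866). The sexes overlapped. Fzd10 starts were at 1.34, 2.52 and 3.43% in females and at 2.80 to 4.90% in males (limma adjusted p = 0.809), and Fzd1 other sites averaged 4.34% in females and 5.97% in males (limma adjusted p = 0.866). The third gene at other sites was Fzd5, 17.3% in females and 15.5% in males (limma adjusted p = 0.885).

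Around these genes, 60 further genes of the pathway were read: co-receptors, R-spondins and their receptors, ligand processing, other extracellular inhibitors, cytoplasmic and nuclear parts, and planar polarity genes. At gene ends 40 were tested, 0 were called by limma and 0 had an unadjusted p under 0.05, and the median difference was -0.159 points. The 3 with the smallest p were Lef1, a β-catenin partner in the nucleus (59.0% in HFD, 54.9% in RD), and the Wnt receptors Ror1 (0.703% and 2.20%, a difference of -1.50 points, or -0.935 without RD female 2) and Ryk (0.478% and 1.31%), all at adjusted p = 0.805 to 0.806. At other sites 49 were tested and 1 was called as lower in HFD (0.148 percent of all genes). The median difference of these 49 was -0.245 points. There 5 had an unadjusted p under 0.05, of them 4 lower in HFD (4.87 percent of all genes). These were Vangl1, Kremen1, Apc and Lrp5, lower in HFD, and Axin1, higher, and all but Vangl1 are named after their values were seen.

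The called gene was Vangl1, a membrane protein of planar cell polarity, the Wnt branch that orients cells in a sheet. Its 7 sites lie inside the gene (chr3:102191920-102194002). They gave 16.3, 17.6 and 20.7% in HFD and 22.8, 26.5 and 30.1% in RD, so that the diets did not overlap. The difference was -8.51 points (log2 ratio -0.61, SE 0.09, limma adjusted p = 0.0257). With 1 mouse left out at a time the difference stayed between -9.25 and -7.77 points, while the call was lost for 10 of the 12 mice (adjusted p up to 0.113). The call was also lost with incomplete sites added (-6.67 points, adjusted p = 0.162), in sites of 20 to 80% only (-10.15 points, adjusted p = 0.0801) and with the replicate number as a block (-8.51 points, adjusted p = 0.313).

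Beside Vangl1, the list of endothelial markers had 1 gene called at other sites. Of the 7 listed, 5 were tested and 4 had a lower HFD mean, as had 53.9 percent of all genes. Of the 5, 3 were lower at an unadjusted p under 0.05 (4.87 percent of all genes) and 1 was called (0.178 percent of all genes were called). The called gene, Egfl7, a secreted endothelial factor, was 15.9% in HFD and 26.5% in RD with no overlap (limma adjusted p = 0.00105), and Pecam1 was 43.5% against 49.8% and Kdr 50.3% against 59.9%. The mean of the 5 genes was 48.9 to 51.1% in HFD mice and 53.7 to 57.5% in RD mice. Their part in the Vangl1 result was not tested, and in bulk tissue fewer cells of a type and a changed level per cell cannot be told apart. No gene of the other marker lists was called by limma. At other sites those tested numbered 6 of 9 for cardiomyocytes, 2 of 7 for fibroblasts, 4 of 7 for immune cells and 4 of 5 for smooth muscle and pericytes. Of these genes 2, both immune (Itgam and Cx3cr1), were lower in HFD at an unadjusted p under 0.05 (4.87 percent of all genes). The HFD mean was lower in 5 of the 6 cardiomyocyte genes, 4 of the 4 immune genes, 3 of the 4 of smooth muscle and pericytes and 1 of the 2 fibroblast genes, against 53.9 percent of all genes. The median differences were -1.59, -1.30, -1.46 and -0.188 points in that order, and -6.36 points in the endothelial genes, against -0.119 points over all genes. At gene ends 4 cardiomyocyte genes, 3 of smooth muscle and pericytes and 1 endothelial gene (Tie1, 27.9% against 37.7%, adjusted p = 0.747) were tested, and 0 fibroblast or immune genes.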

How the data were processed

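The authors deposited 1 table of percent methylation per cytosine for 12 samples, and the unit follows from the range of its values. The submitters' processing notes name FastQC, Trim Galore, Bismark 0.19, limma and the build mm10, with no roles. The coverage minimum and the treatment of strands are not given in the sources used here. Where rows lay 1 bp apart (7060 places), each was kept as a site.

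Gene ends came from an NCBI RefSeq table of GRCm38.p6. Of 45418 listed positions inside its promoter sequences, 45410 (99.98%) lay on a CpG. Autosomal sites with values in all 12 samples were averaged per protein-coding gene (at least 3 sites), and rates entered limma 3.58.1 (R 4.3.3; lmFit, eBayes) as log2((rate + 0.05)/(1 - rate + 0.05)) with diet and sex. Contrasts within a sex used 1 mean per group. P-values were two-sided and Benjamini-Hochberg adjusted over all features of a kind, with a threshold of 0.05. On simulated data, 62% of 200 gene ends and 87% of 200 other-site means shifted by 1 on the log2 ratio scale were called, and at single sites 0% for a shift of 1 and 53.5% for a shift of 2.

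Members and lists were chosen with earlier results of these data known. Named in each class and kind were the member with the highest level and the 2 with the smallest diet p-value, the 3 sites and windows with the smallest p-value, and for sex and interaction the 2 smallest. For pathway genes these were the called ones, otherwise the 3 smallest. Genes shown for their spread between mice, and the promoters of Wnt7a and Dkk1, were added after their values were seen. Promoters the rule named were left out where they overlap the gene or hold no listed cytosine, apart from Wnt8b and Wnt4. Alternatives changed the transform, limits, site minimum, windows, sex term, block and samples. Figures used matplotlib 3.10.9.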

Additional observations from a re-analysis of the deposited data

Results flagged for a closer look

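In groups of 6 mice, 5 of the 58 sets of values examined held 1 mouse far from the others by Dixon's 95% criterion, where chance gives about 1 in 20, or 2.9 sets. Of these, 3 concern RD female 1. Its Wnt8b gene-end level was 45.7% against 34.3 to 38.2% in the other 5 RD mice. Its Sfrp2 level at other sites was 64.3% against 69.2 to 71.8%. Its mean over ligand gene ends, which contains the Wnt8b value, was 10.6% against 6.22 to 7.46%. The sets examined are thus not independent of one another. RD female 3 had 87.0% at the other sites of Wnt4, where the rest of the RD mice had 90.2 to 91.3%. RD male 1 had 90.8% in the Wnt7b window at chr15:85538091-85538145, where the rest had 80.9 to 84.5%.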

How the results depend on the processing

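No member was called in any of 87 fits under an alternative, and the lowest adjusted p of a member in them was 0.168, at single sites. The counts over all genes did move. At gene ends, 2 calls became 1 with untransformed rates, 4 with trended robust variances, 5 with at least 5 sites, 4 without the sex term and 0 with ends of 500 bp or 2 kb, and 0 to 4 without 1 mouse. Restricting means to 5 to 95% turned 3 calls in males and 1 in the interaction into 0. At other sites, 18 calls became 8 with incomplete sites and 11 inside genes only, and 4 to 15 without 1 mouse. The pathway list's 1 call became 0 with incomplete sites or sites of 20 to 80%, and 0 to 1 without 1 mouse. Single sites gave 54 calls at 20 to 80% and 78 untransformed, against 16, and 0 to 22 without 1 mouse. Windows gave 19 at 20 to 80%, against 7, and 3 to 11 without 1 mouse.

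Correlations of same-numbered mice, as deviations from their group means over windows, were -0.082 to 0.0164 (13 pairs). In pairs with unlike numbers they were -0.114 to 0.117 (40 pairs). With so few mice per group, deviations from a group mean are tied to one another, so these values cannot show whether replicate numbers pair the mice. With the replicate block, calls were 1 at gene ends, 2 at other sites, 0 at sites and 3 in windows, with 0 members and 0 pathway genes.

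Differences of single genes changed sign: Fzd9 to -1.55 points with incomplete sites and Sfrp4 to -0.0693 within 500 bp. Without 1 mouse, Fzd9 gene ends ran from -0.111 to 0.536. Other sites ran from -0.479 to 0.384 in Wnt4, -1.07 to 0.688 in Fzd3 and -1.56 to 0.506 in Sfrp2. Larger changes came outside the naming rule. Wnt9a gene ends went from -1.97 to 1.65 points without RD female 1. Sfrp2 gene ends went from -0.627 to 1.17 without RD female 2, and Sfrp1 other sites from -0.542 to 2.51 without HFD male 4. Gene ends of Dkk1, Fzd5, Fzd8, Sfrp1, Wnt3a, Wnt4 and Wnt5b and other sites of Fzd5, Fzd7, Fzd10 and Wnt9b also changed sign. Weighting sites equally moved ligands to 6.12% at gene ends and 29.7% at other sites, receptors to 20.1% and inhibitors to 47.4% there. Start sites only, added after the data were seen, gave 3.62% for ligands and 3.00% for inhibitors. Apart from fewer or other features tested, the cause was not tested. A coverage minimum was not run, since the table holds no coverage.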
